A study of Mus musculus with 6 samples.

Results

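The genes described here are 33 mouse genes that code for collagens, for the proteins that bind and process them, and for the cells that line the walls of vessels and the coverings of the spinal cord. They were chosen by name, in 9 groups: fibrillar collagens, basement membrane collagens, collagen VI, matrix glycoproteins and processing factors, small leucine-rich proteoglycans, meningeal and barrier genes, smooth muscle contractile genes, pericyte genes, and the matrix receptor gene Itga3. They are 33 of 18193 genes named on the array and were represented by 68 probe sets, which are groups of short probes that together read 1 transcript. Of these, 52 probe sets from 30 genes were bright enough to be tested. Of those genes 29 passed the filter on dim signals in both genotypes and 1, Des, only through its wild type arrays. Slc22a6, Myh11 and Cnn1 had no tested probe set.

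The study measured messenger RNA in the spinal cord of untreated, naive male C57Bl/6 mice aged 4 months. It compared 3 wild type mice with 3 Nogo-A knockout mice, 1 array per animal, to ask how the adult uninjured cord differs without this inhibitor of axon growth. The labels give the genotype only as Nogo-A knockout and name no allele. Values are signals in the arbitrary intensity units of the deposited arrays, and differences are log2 of knockout over wild type unless a fold is named.

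Fibrillar collagens are secreted as procollagens, trimmed outside the cell and assembled into the fibrils that give the meninges and the outer vessel wall their strength. Collagen IV forms the sheet-like basement membrane around vessels and under the pia, and collagen VI forms beaded filaments between that sheet and the fibrils. In the healthy cord these genes are used mainly by fibroblasts of the meninges and vessels and by mural cells, the smooth muscle cells and pericytes that wrap vessels, while neurons and glia make little fibrillar collagen. The samples were bulk tissue, in which fewer cells of a type and less RNA per cell cannot be told apart.

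The targeted gene was checked first. The Rtn4 probe set 1437224_at read 2790 to 3560 in wild type and 5.08 to 78.2 in knockout, and it was the only call, 1 of 23546 probe sets or 0.00425%, at an adjusted p under 0.05 in limma (adjusted p = 0.0149). The other 4 Rtn4 probe sets did not lose signal and were higher in knockout without overlap, at 1.32-fold to 1.62-fold (adjusted p = 0.537 to 0.591 in limma). Markers of spinal cord neurons and glia were bright on all arrays, with Snap25, a synaptic protein, at 24217 to 33804 and Mbp, a myelin protein, at 38048 to 52806, while Chat, which makes acetylcholine in motor neurons, read 75.1 to 142, near or below the array medians. The summed signal of 14 such markers was 131513 to 147524 in wild type and 151682 to 163714 in knockout, without overlap. At their brightest tested probe sets, 3 of 13 (Mbp, Slc32a1 and Rbfox3) were higher at an unadjusted p under 0.05, beside 4.94% of all genes. Other Rbfox3 probe sets gave -0.33 (1456149_at, lower at that threshold) and -0.13 (1427286_at). The mean log2 signal per array of the 13 tested markers did overlap, and their part in the members' differences was not tested. Scaling had made the trimmed means equal, but the median signal was 148, 170 and 196 in wild type against 144, 149 and 144 in knockout.

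None of the 30 tested genes passed the adjusted test, in which the smallest adjusted p was 0.591 (limma, Benjamini-Hochberg over all 23546 probe sets). The direction of the signals was uneven among the groups. At an unadjusted p under 0.05, each gene being represented by its brightest tested probe set, 6 genes were higher in the knockout (Col1a1, Col1a2, Col3a1, Col6a2, Dcn and Itga3), where 4.94% of all 11651 genes were, and 1 was lower (Lum), where 3.25% were. The 3 knockout values lay above all 3 wild type values in 7 of the 30 genes, against 9.06% of all genes, and below them in 1, against 5.37%. The median difference of the 30 genes was 0.12, beside 0.028 over all genes, with 22 genes above 0 and 8 below.

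These counts depended on the scaling and on 1 array. With each array divided by its median, the step that the series' design text names, 11 members were higher and none lower at an unadjusted p under 0.05 in limma. That scaling moved the median of all genes from 0.028 to 0.25 and their split from 576 higher and 379 lower to 1597 and 98. Relative to the median of all genes, 21 of the 30 members were above it under either scaling. Without wild type replicate 1, 8 members were higher and 3 lower at the unadjusted threshold, while the shares over all genes went up to 7.58% and 6.93%. Without both wild type replicate 3 and knockout replicate 2, the arrays with the brightest skeletal muscle genes, 10 were higher and 1 lower, beside 8.83% and 4.56% of all genes. The members' median was 0.055 when wild type replicate 1 was left out, 0.24 when wild type replicate 3 was, and 0.18 when knockout replicate 3 was.

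**Figure D1:**
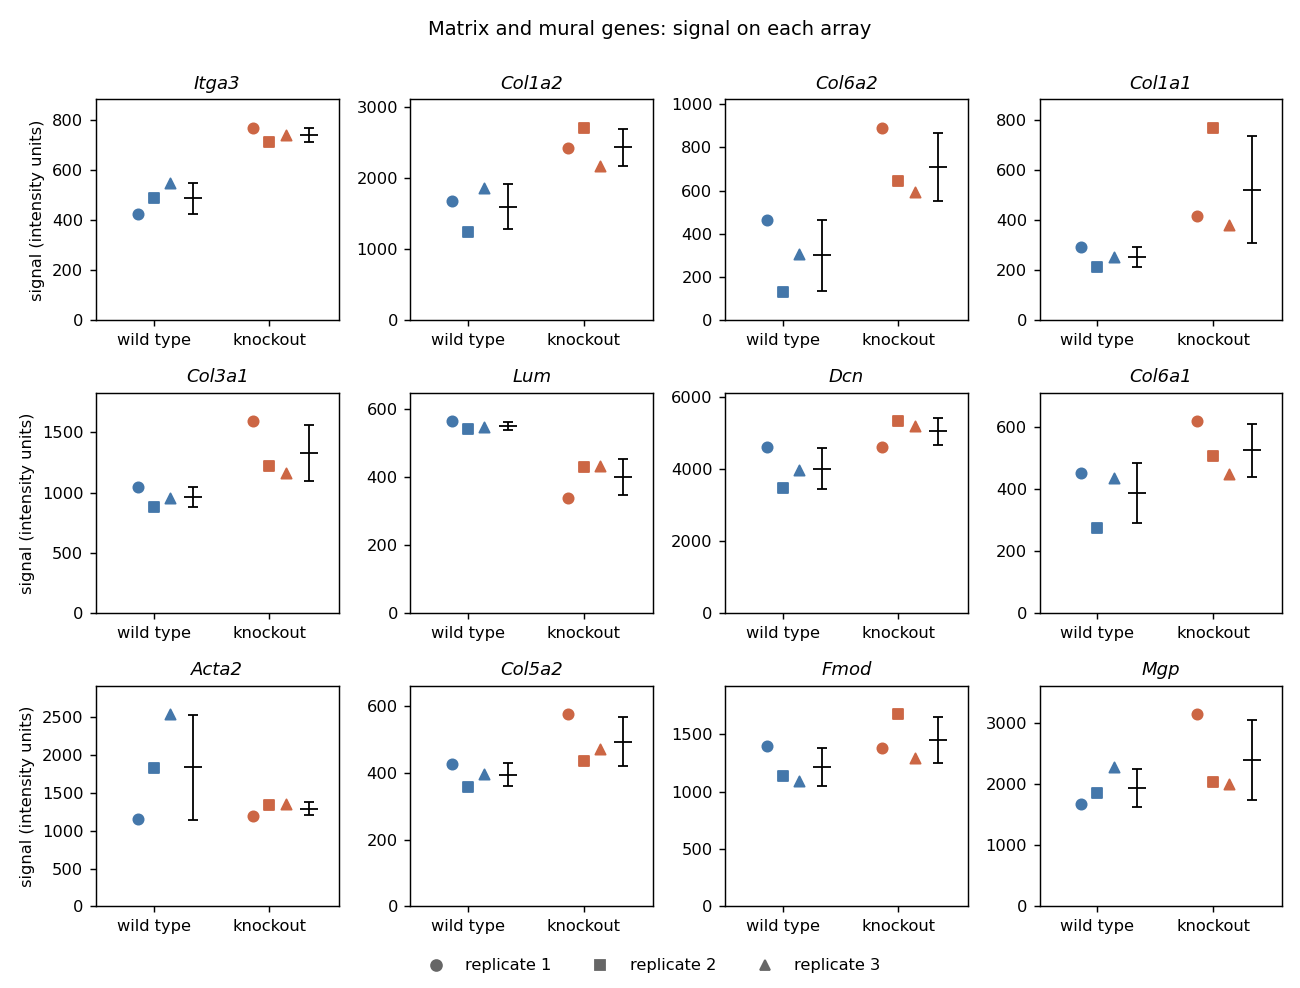
Signal of 12 genes on each array in intensity units, with wild type in blue and knockout in orange, a marker shape per replicate number, and the black bar giving the mean and SD of 3 arrays. The knockout points lie above all wild type points for Itga3, Col1a2, Col6a2, Col1a1, Col3a1, Dcn and Col5a2, and below them for Lum; no gene shown passed the adjusted test.

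All 5 fibrillar collagens had a positive difference at the brightest probe set, with a median of 0.45. In 4 of the 5 the knockout lay above wild type without overlap, against 9.06% of all genes, although none passed the adjusted test. Col1a1 and Col1a2 code for the 2 chains of collagen I, the main collagen of the dura and of skin and bone. Col1a1 (probe set 1423669_at) read 293, 213 and 254 in the wild type mice and 415, 767 and 382 in the knockout mice, given here and in what follows in the order of the replicate numbers. The means were 254 ± 40.0 and 521 ± 213 (SD, n = 3 each), and all knockout arrays were above all wild type arrays, with knockout replicate 2 far above the others. This was 1.97-fold with a 95% interval of 1.32 to 2.94, or 0.98 ± 0.26 (SE) on the log2 scale (adjusted p = 0.591 in limma). Without knockout replicate 2 the difference was 0.66. A second Col1a1 probe set, 1455494_at, gave overlapping values and 0.26, with an interval of -0.47 to 0.99.

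Col1a2 (1450857_a_at) read 1678, 1247 and 1869 in wild type and 2428, 2704 and 2179 in knockout. The means were 1598 ± 319 and 2437 ± 263, with a gap between the genotypes that no array crossed. The ratio was 1.54, with an interval of 1.22 to 1.94 (adjusted p = 0.591 in limma). Its second tested probe set, 1423110_at, pointed the same way, at 539, 577 and 300.5 in wild type and 697, 1070 and 693 in knockout, a 1.77-fold ratio (adjusted p = 0.591 in limma). Both Col1a2 probe sets thus separated the genotypes, while for Col1a1 only the brighter of its 2 tested probe sets did.

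Col3a1 codes for collagen III, which is mixed with collagen I in the fibrils of vessel walls and soft connective tissue. It (1427883_a_at) read 1049, 885 and 954 in wild type and 1593, 1225 and 1162 in knockout, 963 ± 82.4 against 1327 ± 233. The ratio was 1.37 with an interval of 1.10 to 1.70 (adjusted p = 0.591 in limma), and without knockout replicate 1, the highest, the difference was 0.31 in place of 0.45 and no longer passed the unadjusted threshold. Col5a2, a chain of the collagen V that starts fibril assembly, lies beside Col3a1 on chromosome 1 with no coding gene between them. It read 428, 359 and 398 in wild type and 576, 435 and 471 in knockout, which did not overlap, but its interval of -0.06 to 0.69 around 0.32 held 0, and without knockout replicate 1 the value was 0.20. Its second probe set gave -0.29. Col5a1, the partner chain, had overlapping ranges and a difference of 0.25 with an interval of -0.30 to 0.81, and without knockout replicate 2 it was 0.076.

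Promoter sequence is shown for 3 genes whose knockout values were all above the wild type values, to set the starts of 2 fibrillar collagen genes and of Itga3 side by side. Each line is the 150 bases before the transcription start in RefSeq's table of GRCm38.p6, read on the strand of the gene from 5′ to 3′. Capitals mark a match to CCAAT, the core of the site bound by the factor NF-Y, or to TATAAA, the core of a TATA box, searched on both strands.
Col1a2: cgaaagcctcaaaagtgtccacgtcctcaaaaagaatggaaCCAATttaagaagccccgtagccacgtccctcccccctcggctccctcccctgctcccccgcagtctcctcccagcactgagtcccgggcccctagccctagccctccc
Col3a1: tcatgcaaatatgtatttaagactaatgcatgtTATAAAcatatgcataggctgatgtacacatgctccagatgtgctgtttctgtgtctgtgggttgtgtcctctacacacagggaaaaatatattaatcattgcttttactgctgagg
Itga3: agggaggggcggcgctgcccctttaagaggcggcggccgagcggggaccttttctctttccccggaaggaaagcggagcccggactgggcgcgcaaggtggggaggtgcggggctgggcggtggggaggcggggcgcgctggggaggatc
The windows lie at chr6:4505468-4505617 on the plus strand for Col1a2, chr1:45311388-45311537 on the plus strand for Col3a1 and chr11:95076715-95076864 on the minus strand for Itga3. The Col1a2 window held CCAAT 109 bases before the start and 62.7% G and C. The Col3a1 window was of another kind, with 37.3% G and C and TATAAA 117 bases before the start, and the Itga3 window, with 74.0% G and C, held neither motif. CCAAT or its reverse complement ATTGG was in 24.5% of the 32841 promoters of the table. Among members it was in 9 of 31 promoters, 1 each for 9 of the 24 genes found there. Those 9 genes include Itga3, through the window not shown. TATAAA or TTTATA was in 7.57% of all promoters and in 1 member, Col3a1. These matches describe the letters of the windows and are no measure of binding.

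Basement membrane collagens gave small differences whose intervals held 0. Col4a1 and Col4a2 code for the chains of the collagen IV network and lie head to head on chromosome 8. Their promoter stretches, counted here from 250 bases before the start to 50 after it, overlap by 78 bases. Col4a1 averaged 1054 ± 147 in wild type and 1062 ± 59.8 in knockout, a difference of 0.02 with an interval of -0.27 to 0.31, and its second probe set gave -0.42 with an interval of -1.06 to 0.21. Col4a2 averaged 614 ± 79.3 and 650 ± 20.1, a difference of 0.09 with an interval of -0.23 to 0.40. An increase of either brightest probe set by the 1.54-fold seen for Col1a2 would lie outside these intervals. Within each array the ratio of the Col1a2 to the Col4a1 signal was 1.79, 1.24 and 1.53 in wild type and 2.18, 2.71 and 2.03 in knockout. The knockout ratios were higher by 0.61 on the log2 scale without overlap, and the exact two-sided permutation p of 0.1 is the smallest that 3 arrays against 3 can give.

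Collagen VI was split among its chains. Col6a2 had the largest log2 difference among the brightest probe sets of the 30 genes, Col6a1 leaned the same way, and Col6a3 gave no clear direction. Col6a2 (1452250_a_at) read 462, 131 and 307 in wild type and 888, 645 and 592 in knockout, 300.1 ± 166 against 708 ± 158. The ratio was 2.63 with an interval of 1.5 to 4.62 (adjusted p = 0.591 in limma). Wild type replicate 2 was the lowest array, and without it the log2 difference was 0.89 in place of 1.4. The second Col6a2 probe set, 1426947_x_at, read 280.0, 310.2 and 674 in wild type and 476, 447 and 442 in knockout, with wild type replicate 3 the highest of all. It gave 0.23 with an interval of -0.40 to 0.85, so the wide separation rested on 1 of 2 probe sets.

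Col6a1, the neighbour of Col6a2 on chromosome 10, read 452, 277 and 437 in wild type and 619, 508 and 449 in knockout. The ranges touched, with knockout replicate 3 just under wild type replicate 1, and the ratio was 1.37 with an interval of 0.987 to 1.91 (adjusted p = 0.607 in limma). Without wild type replicate 2 the log2 difference was 0.23 in place of 0.46. Col6a3, the longest of these chains, read 185, 205 and 555 in wild type and 343, 237 and 243 in knockout. Its difference was -0.03 with an interval of -0.85 to 0.79, and without wild type replicate 3 it was 0.47.

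**Figure D2:**
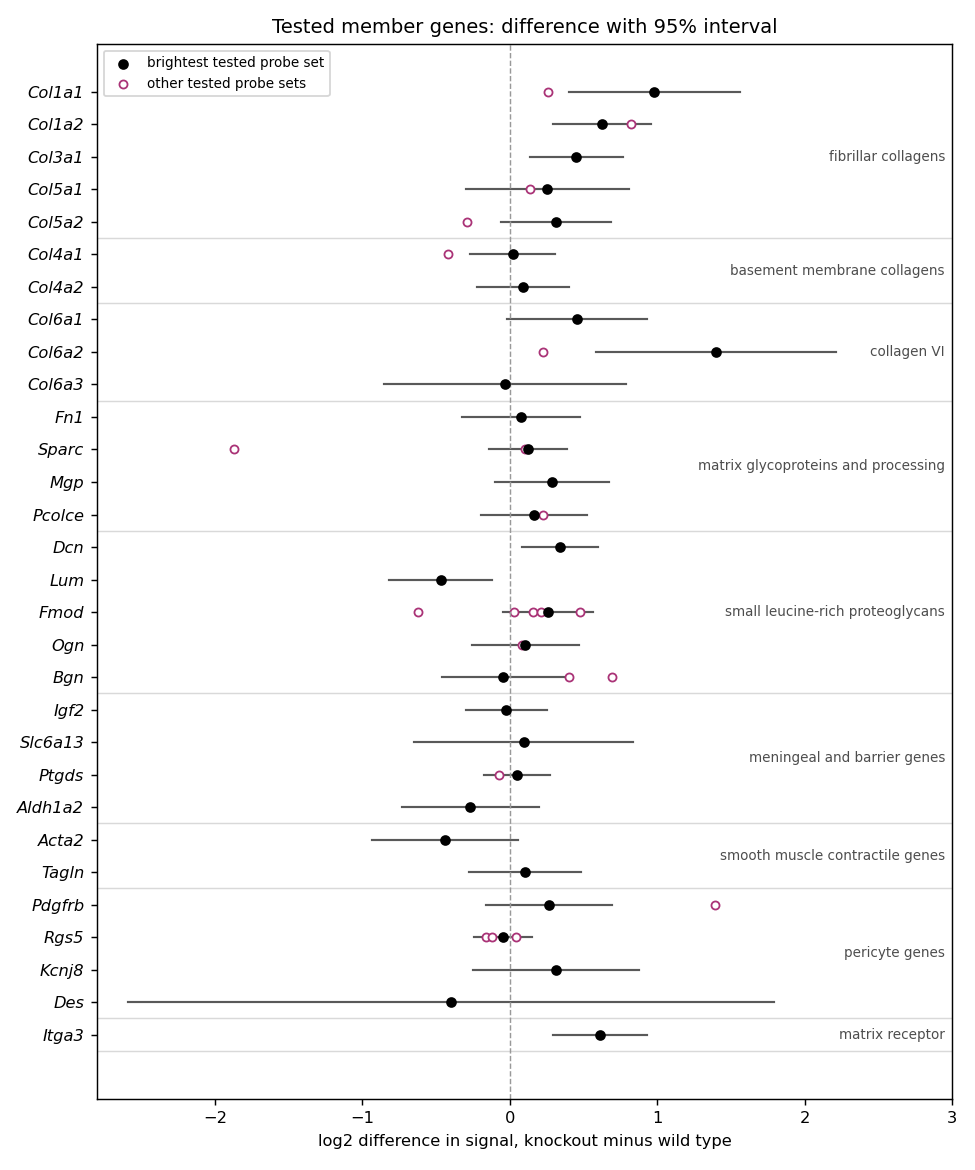
Log2 difference in signal, knockout minus wild type, for the 30 tested genes by group, with the 95% interval from limma for the brightest tested probe set (black) and the differences of other tested probe sets (open circles, no interval drawn). The intervals of 6 genes lie above 0 and that of Lum lies below; open circles fall on the other side of 0 from the black point for 7 genes.

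The matrix glycoproteins and processing factors stayed close to the level of all genes at their brightest probe sets, with a median of 0.14. Mgp, an inhibitor of calcification made by vascular and meningeal cells, read 1680, 1856 and 2275 in wild type and 3145, 2030 and 2007 in knockout, and only knockout replicate 1 stood above the wild type range. Its difference was 0.28 with an interval of -0.10 to 0.67 (adjusted p = 0.677 in limma), and without knockout replicate 1 it was 0.071. Sparc, a collagen-binding chaperone-like protein, averaged 10687 ± 1575 and 11629 ± 1384, a difference of 0.13 with an interval of -0.14 to 0.39. Pcolce, which speeds the trimming of procollagen, gave 0.16 with an interval of -0.20 to 0.52, and Fn1, fibronectin, gave 0.08 with an interval of -0.32 to 0.48.

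The small leucine-rich proteoglycans bind the surface of collagen fibrils and limit their width. They held both the member that was lower at the unadjusted threshold, Lum, and a member that was higher, Dcn, and their group median was 0.10. Lum, or lumican (1423607_at), read 564, 540.1 and 547 in wild type and 339, 429 and 432 in knockout. The wild type arrays lay within a narrow band, 550.4 ± 12.3, and all knockout arrays lay below it, 400.1 ± 52.8. The ratio of knockout to wild type was 0.723 with an interval of 0.567 to 0.921 (adjusted p = 0.591 in limma). Without knockout replicate 1, the lowest, Lum no longer passed the unadjusted threshold. With each array divided by its median the Lum difference was -0.25 in place of -0.47, and relative to all genes it was -0.50 under both scalings.

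Dcn, or decorin (1449368_at), read 4602, 3462 and 3959 in wild type and 4619, 5319 and 5202 in knockout. The means were 4008 ± 572 and 5047 ± 375, and the genotypes were apart only by the small gap between wild type replicate 1 and knockout replicate 1. The ratio was 1.27 with an interval of 1.06 to 1.51 (adjusted p = 0.591 in limma). Dcn no longer passed the unadjusted threshold without wild type replicate 2, without knockout replicate 2, or without the intensity trend in the limma fit. Dcn and Lum are neighbours on chromosome 10 with no coding gene between them, and both products bind collagen fibrils. The Dcn signal over the Lum signal of the same array, which multiplying an array by a constant does not alter, was 8.16, 6.41 and 7.24 in wild type and 13.6, 12.4 and 12 in knockout. Mean log2 ratios were 2.85 ± 0.17 and 3.66 ± 0.093 (SD, n = 3 each), a difference of 0.81 with the exact two-sided permutation p at its floor of 0.1. As Dcn alone was higher and Lum alone lower without overlap, this ratio had to separate the genotypes, so its p adds no support. The Dcn to Lum ratio was 1 of 3 such ratios computed, with those of Col1a2 to Col4a1 and of Col1a1 to Acta2. All were chosen after the values had been seen.

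**Figure D3:**
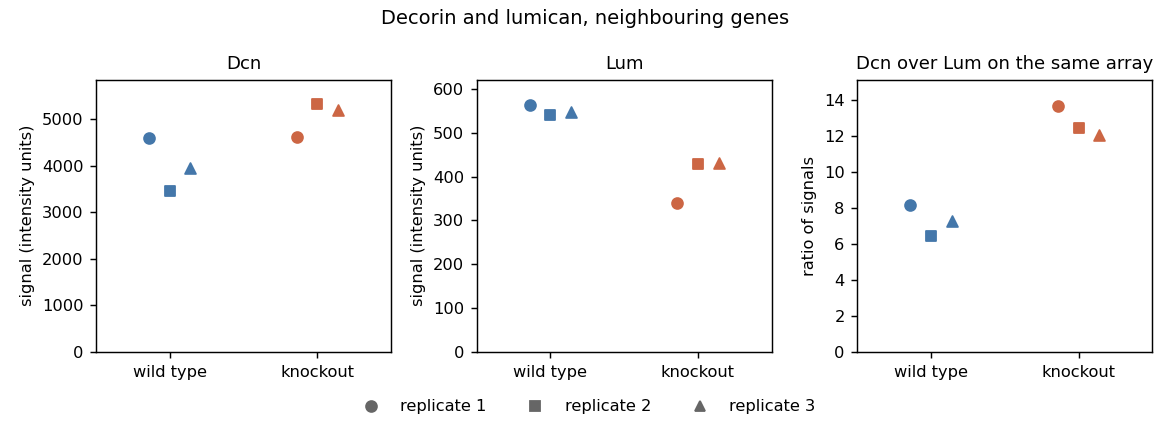
Signals of Dcn and of Lum on each array in intensity units, and the ratio of Dcn to Lum on the same array, for 3 wild type (blue) and 3 knockout (orange) arrays with a marker shape per replicate number. Ratios were 6.41 to 8.16 in wild type and 12 to 13.6 in knockout, while Dcn alone was nearly equal on wild type replicate 1 and knockout replicate 1.

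Fmod, or fibromodulin, was covered by 6 tested probe sets with differences from -0.63 to 0.48. The brightest read 1404, 1136 and 1098 in wild type and 1381, 1676 and 1297 in knockout, overlapping ranges with a difference of 0.26 and an interval of -0.05 to 0.57 (adjusted p = 0.641 in limma), which was 0.15 without knockout replicate 2. Bgn, or biglycan, was read differently by its 3 probe sets. The brightest, 1416405_at, gave -0.04 with an interval of -0.46 to 0.37. The others, 1437889_x_at and 1448323_a_at, gave 0.69 with an interval of 0.20 to 1.19 and 0.40 with an interval of 0.08 to 0.72 (adjusted p = 0.591 in limma for both), so the count of higher members would change with the probe set taken for Bgn. Ogn, or osteoglycin, averaged 2878 ± 523 and 3100 ± 624, a difference of 0.10 with an interval of -0.26 to 0.47.

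Meningeal and barrier genes gave no separation of the genotypes. Their median was 0.012 over 4 tested genes. Ptgds, the prostaglandin D synthase secreted by the leptomeninges, averaged 24601 ± 2044 and 25509 ± 3015, a ratio of 1.03 with an interval of 0.885 to 1.21. Igf2, a growth factor of the meninges and choroid plexus, averaged 1082 ± 44.3 and 1068 ± 118, a ratio of 0.984 with an interval of 0.814 to 1.19. These intervals hold no change as large as the 1.54-fold of Col1a2. Slc6a13, a transporter for GABA in leptomeningeal cells, gave 0.09 with a wide interval of -0.65 to 0.83. Aldh1a2, which makes retinoic acid in meningeal fibroblasts, read 413, 661 and 755 in wild type and 536, 480.2 and 459 in knockout, with the knockout arrays inside the wild type range. Its difference was -0.27 with an interval of -0.73 to 0.20 (adjusted p = 0.738 in limma), and it was -0.53 without wild type replicate 1 and -0.091 without wild type replicate 3. Slc22a6, an organic anion transporter, read 17.0 to 82.0 at both probe sets, too dim to test.

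Among the smooth muscle contractile genes, Acta2, the actin of vascular smooth muscle, leaned the other way from the fibrillar collagens. It (1416454_s_at) read 1153, 1834 and 2542 in wild type and 1191, 1338 and 1355 in knockout. The wild type arrays spanned a range that held all knockout arrays, and the means were 1843 ± 694 and 1294 ± 90.1. The ratio was 0.738 with an interval of 0.524 to 1.04 (adjusted p = 0.625 in limma). The value turned on the wild type arrays, with a difference of -0.74 without wild type replicate 1 and of -0.17 without wild type replicate 3, in place of -0.44. Tagln, a second actin-binding protein of smooth muscle, averaged 371 ± 22.5 and 399 ± 50.8, a difference of 0.10 with an interval of -0.28 to 0.48. Myh11, the smooth muscle myosin, read 5.07 to 153 over both probe sets and Cnn1, calponin, 15.6 to 86.4, so the contractile programme was covered by only 2 tested genes. The ratio of Col1a1 to Acta2 on the same array was higher in the knockout by 1.42 on the log2 scale without overlap (exact two-sided permutation p = 0.1, the smallest possible).

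Pericyte genes had a median of 0.11. Rgs5, a widely used pericyte marker, averaged 5739 ± 334 and 5564 ± 260, and its ratio of 0.970 had an interval of 0.846 to 1.11. Pdgfrb, the receptor through which vessels recruit pericytes, read 526, 768 and 855 in wild type and 1031, 770.1 and 753 in knockout, with a difference of 0.26 and an interval of -0.16 to 0.69 (adjusted p = 0.719 in limma). Only knockout replicate 1 stood above the wild type range, and the difference was 0.12 without it and 0.057 without wild type replicate 1. A dimmer Pdgfrb probe set read 134, 75.7 and 26.3 in wild type and 187, 122 and 212 in knockout, with overlap. It passed the filter on dim signals only through its knockout arrays, so its difference of 1.39 (adjusted p = 0.601 in limma) is given as a description. Kcnj8, a potassium channel of pericytes, gave 0.31 with an interval of -0.25 to 0.87. Des, desmin, was dim and varied between 21.3 and 203 on the arrays, with an interval of -2.59 to 1.79.

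Itga3 codes for the integrin subunit that, paired with beta 1, binds laminins of the basement membrane. It had the smallest p of the members. It (1455158_at) read 424, 490.3 and 549 in wild type and 768, 714 and 740.1 in knockout. The knockout arrays lay within a narrow band, 741 ± 27.4 against 488 ± 62.4, and every one was above the wild type range. The ratio was 1.53 with an interval of 1.22 to 1.91 (adjusted p = 0.591 in limma). Its other 2 probe sets were too dim to test, at 18.1 to 195. Unlike Col1a1, the gene had no single high array, and leaving out any 1 array moved its difference only between 0.51 and 0.70. Without Itga3 the median of the members was 0.10 and 5 were higher.

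Probe sets of the same gene often differed. Of the 14 members with more than 1 tested probe set, 7 had differences of both signs, though in none of them did opposite signs both reach an unadjusted p under 0.05. Over all 52 tested member probe sets, 10 were higher and 1 was lower at that threshold in limma, beside 4.30% and 3.98% of all 23546 tested probe sets. The widest disagreement was that of Sparc, whose bright probe sets gave 0.13 and 0.11 while 1458204_at, at 22.1 to 328, gave -1.87. The last passed the filter on dim signals only through wild type replicates 2 and 3, which favoured its direction. With the mean of all tested probe sets of a gene in place of the brightest one, 9 members passed the unadjusted threshold. Of these, 7 were higher and 2 lower, beside 4.80% and 3.81% of all genes. The added calls were Pdgfrb (higher) and Sparc (lower). Each has a probe set that passed the filter on dim signals only through the genotype in which it was brighter, which favoured the direction.

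Set side by side on each array, the 9 member groups separated the genotypes for the fibrillar collagens and Itga3 and overlapped for the 7 others. The mean of the 5 fibrillar collagens, relative to its wild type mean, was 0.051, -0.15 and 0.10 in wild type and 0.59, 0.70 and 0.28 in knockout. Collagen VI gave 0.16, -0.63 and 0.48 against 0.92, 0.50 and 0.40, with wild type replicate 3 inside the knockout range. The basement membrane pair gave -0.17, -0.032 and 0.20 against 0.12, -0.00048 and 0.046. The 4 pericyte genes gave -0.63, 0.18 and 0.45 against -0.22, 0.33 and -0.016, a spread that came from the dim gene Des. Without Des, a step chosen after the values were seen, they gave -0.14, -0.071 and 0.22 against 0.32, 0.16 and 0.060, with knockout replicate 1 above the wild type range. Wild type replicate 1 was the lowest array in the pericyte, meningeal, smooth muscle, basement membrane and matrix glycoprotein groups and for Itga3. Over all 30 members the means were -0.15, -0.055 and 0.21 in wild type against 0.23, 0.23 and 0.10 in knockout, with overlap. Separation by this measure was not limited to members. Blood genes (at most 0.71 in wild type and at least 0.73 in knockout), the other collagens (at most 0.079 and at least 0.12) and the matrix proteases and inhibitors (at most 0.11 and at least 0.16) also showed no overlap. Some genes in these means had passed the filter on dim signals only through knockout arrays, which favours higher knockout values. They were Slc4a1 among the blood genes and Col15a1, Col8a2 and Col9a3 among the other collagens.

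**Figure D4:**
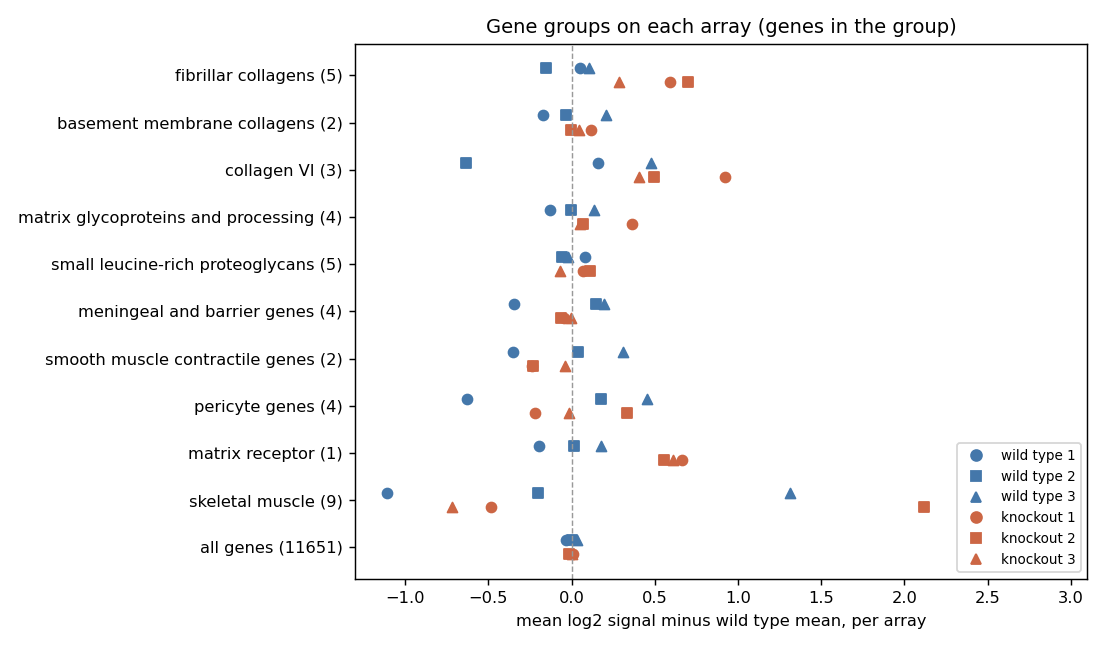
Mean log2 signal of each gene group on each array minus the wild type mean of its genes, with the number of genes in brackets, wild type arrays in blue above knockout arrays in orange, and a marker shape per replicate number. Of the member groups, the fibrillar collagens and Itga3 (matrix receptor) show no overlap; skeletal muscle genes reach 2.12 in knockout replicate 2 and 1.31 in wild type replicate 3, and all genes together stay near 0.

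Markers of tissues that surround the cord also differed between arrays, and their part in these results was not tested except where a value is given. The summed signal of 12 of 12 skeletal muscle genes ran from 1804 to 9286 in wild type and from 2291 to 19099 in knockout. Acta1, skeletal actin, read 385, 754 and 2142 in wild type and 657, 4593 and 536 in knockout, and Myh4, a fast myosin, read 117, 253 and 815 and 262, 2151 and 262. The brightest of these arrays, knockout replicate 2, was also the one with the highest Col1a1 and Col1a2 signals. Without both that array and wild type replicate 3 the difference was 0.67 for Col1a1, 0.67 for Col1a2 and 0.50 for Col3a1, beside 0.98, 0.62 and 0.45 over all arrays. The sum of 12 of 13 bone and cartilage genes was 1116 to 1605 in wild type and 1040 to 1174 in knockout. Col2a1, at 16.7 to 92.8, and Col10a1, at 2.83 to 39.5, were too dim to test. The tested genes of this list were Dmp1, at 320 to 391, and Cnmd. Cnmd read 157 to 203 in wild type and 128 to 147 in knockout (adjusted p = 0.763 in limma), after passing the filter on dim signals only through wild type. The sum of 5 of 7 fat genes was 148 to 612 and 160 to 287, with Adipoq, too dim to test, at 3.24 to 45.1. The tested fat gene, Retn, gave -1.46 (adjusted p = 0.599 in limma), and it too had passed the filter only through wild type.

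Schwann cells lie in the nerve roots, which carry their own collagen sheaths. The sum of 5 of 7 Schwann cell genes was 14314 to 16965 in wild type and 17572 to 24132 in knockout, without overlap. The mean log2 signal of these genes did overlap, at 0.035, 0.065 and -0.10 against 0.40, 0.058 and 0.22, and their part in the collagen differences was not tested. The main part of the sum was Pmp22, a protein of peripheral myelin that other cells also make, with a difference of 0.45 (adjusted p = 0.591 in limma). Ncmap gave 0.36 (adjusted p = 0.598 in limma), Dhh 0.39 without overlap between genotypes, Cdh19 0.25 and Egr2 -0.32. At the unadjusted threshold 2 of the 5, Pmp22 and Ncmap, were higher, where 4.94% of all genes were. The sum of 5 of the listed dorsal root ganglion genes was 1193 to 1623 and 1581 to 2158, with Prph, an intermediate filament of peripheral and motor neurons, at 0.39 (adjusted p = 0.597 in limma). Blood genes, 5 of 8, summed to 2022 to 10673 and 7117 to 8825, and Slc4a1, the anion exchanger of red cells, read 57 to 80.8 in wild type and 188 to 256 in knockout, passing the filter only through the latter. The sum of 10 of 10 endothelial genes was 8709 to 11011 and 8911 to 9410, with the knockout inside the wild type range, while Pecam1 gave -0.62 (adjusted p = 0.595 in limma). The sum of 6 choroid plexus genes was 395 to 855 and 365 to 470, with Ttr, too dim to test, at 3.41 to 135. The tested gene of that list, Clic6, gave -0.70 with an interval of -1.44 to 0.03.

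The other genes of the matrix, mural and meningeal programmes, 121 tested of 157 listed, had a median difference of 0.072. The unadjusted threshold of 0.05 was passed by 11 of them in the higher direction and by 2 in the lower, beside 4.94% and 3.25% of all genes, and none passed the adjusted test. Of the 121 genes, 7 passed the filter on dim signals only through knockout arrays and 1 only through wild type arrays, which favours the direction they then show. The enzymes and chaperones that fold, cross-link and cleave collagen had a median of -0.0077 over 17 genes, with 8 above 0 and 9 below. Serpinh1, the collagen chaperone of the endoplasmic reticulum, gave 0.25 and Ppib, a prolyl isomerase, 0.14, with intervals that held 0, and P4ha2, a prolyl hydroxylase subunit, gave -0.77 (adjusted p = 0.598 in limma) and had passed the filter only through wild type. The 12 tested genes for other collagens had a median of 0.11 with none past the unadjusted threshold, and Col15a1, of vessel basement membranes, gave 1.02 with an interval of -0.10 to 2.14 after passing the filter only through knockout. Col12a1 gave 0.36 and Col8a2 gave 0.52, both with intervals across 0, Col8a2 again having passed only through knockout.

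Of 10 laminin, perlecan and nidogen genes, 2 were higher at the unadjusted threshold, where 4.94% of all genes were, and the median was 0.19. Lama4, the laminin chain of vessel walls, gave 1.04 (adjusted p = 0.595 in limma), but it too had passed the filter only through knockout. Hspg2, or perlecan, read 393, 356 and 344 in wild type and 457, 463 and 483 in knockout, 0.36 without overlap (adjusted p = 0.598 in limma). Its other tested probe set, 1418670_s_at, gave -0.29 after passing the filter only through knockout. Lama5 gave -0.70 with an interval of -1.41 to 0.02. Among 13 integrins and other matrix receptors, which include the partners of Itga3, the median was 0.0062 and 1 was higher. This was Cd44, a receptor for hyaluronan, at 0.39 (adjusted p = 0.595 in limma). Itgb1, the beta 1 partner itself, gave 0.25 with an interval of -0.14 to 0.64, and Dag1, dystroglycan, gave 0.17 with an interval of -0.08 to 0.41.

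The 12 tested matrix proteases and inhibitors all had differences above 0 at their brightest probe sets, with a median of 0.10. At the unadjusted threshold 2 were higher, where 4.94% of all genes were. Serpinf1, an antiangiogenic serpin, read 794, 642 and 678 in wild type and 896, 931 and 948 in knockout (0.40, adjusted p = 0.591 in limma). Adamts5, which cuts proteoglycans, read 463, 390 and 321 and then 558, 548 and 555 (0.52, adjusted p = 0.591 in limma). Its other tested probe sets pointed the other way, at -0.43 (1450658_at) and -0.04 (1422561_at). Serpinf1 and Adamts5 both separated the genotypes at their brightest probe sets, and Timp2, a protease inhibitor, gave 0.20 with an interval of -0.01 to 0.42. TGF-beta drives collagen genes in fibroblasts and PDGF recruits mural cells, and the 17 tested genes of both pathways together had a median of -0.0077. Their 1 higher member, where 4.94% of all genes were higher, was Ccn2, a matricellular target of TGF-beta, at 0.41 (adjusted p = 0.599 in limma). Tgfb3 gave 0.32 and Smad3 gave -0.21, with intervals that held 0.

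Other mural genes, 17 tested, had a median of 0.17 with 2 higher and 1 lower at the unadjusted threshold, beside 4.94% and 3.25% of all genes. Vtn, vitronectin, gave 0.31 (adjusted p = 0.595 in limma). Tpm1, a tropomyosin shared with skeletal muscle, gave 0.87 (adjusted p = 0.595 in limma) with its highest value, 2182, on knockout replicate 2, the array with the brightest muscle genes. Myl9, the regulatory myosin light chain of smooth muscle, read 1079, 1476 and 1746 in wild type and 1127, 1056 and 1071 in knockout (-0.38, adjusted p = 0.598 in limma). The order of its wild type arrays was that of Acta2, with replicate 1 lowest. Among the knockout arrays, replicate 1 was highest for Myl9 and lowest for Acta2. Other meningeal and fibroblast genes, 23 tested, had a median of 0.044 and 3 higher at that threshold, beside 4.94% of all genes. Igfbp5 read 1358, 987 and 1178 and then 1796, 1486 and 1703 (0.51, adjusted p = 0.591 in limma). Its other tested probe set, 1422313_a_at, gave -0.68 and passed the unadjusted threshold in the lower direction, so the probe sets of Igfbp5 disagreed. S100a6 gave 0.53 (adjusted p = 0.591 in limma) and Slc47a1, a transporter, 0.88 (adjusted p = 0.595 in limma), with values of 172 to 189 in wild type and 203 to 604 in knockout. At the brightest probe sets the knockout arrays were above the wild type arrays for all 3.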

How the data were processed

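Values were intensities on a linear scale from 6 Affymetrix Mouse 430 2.0 arrays, deposited by the authors who computed them in GCOS 1.4 by the MAS 5.0 method, per the submitters' notes on processing. Per the labels, all RNA was extracted on the same day. The equal trimmed means show that the deposited intensities had been scaled before deposit. Division by the array median, part of the authors' later steps in GeneSpring 7.2 per the series' design text, shifts all genes and was run as an alternative. The build behind the probe sets is not given in the sources used here.

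Intensities were converted to log2. The 64 control probe sets were left out, and a probe set was tested where 2 or more of the 3 arrays of a genotype had it at or above their 50th percentile. This left 23546 probe sets, of which 20459 had 1 gene symbol and stood for 11651 genes. Genotypes were compared in limma 3.58.1 (R 4.3.3; lmFit and eBayes with an intensity trend), with Benjamini-Hochberg adjustment over all tested probe sets at 0.05. SDs are over 3 arrays, intervals are 95%, and p-values measure the spread between these animals. The number of arrays limits the precision. Arrays with the same number in the labels correlated at -0.034, 0.074 and 0.11 in their deviations, so they were not treated as pairs.

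Probe sets were named from the annotation of the platform, with symbols brought up to date in RefSeq by gene identifier (34754 of 35890 annotated probe sets matched; 34945 had 1 symbol and 932 several). A gene was represented by its brightest tested probe set. Values on every array are given for the 14 members with the smallest p, and up to 3 genes of each other list are named by p. List genes not found on the array are not analysed here. Values on every array of further probe sets and genes were added after they had been seen. Members and lists were chosen with earlier results of these data known. The fit was checked on simulated data.

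Alternatives were other scalings, filters at the 25th and 75th percentile and none, an offset of 32 units, no trend, the replicate number as a block (replicate block), omission of each array in turn, the arrays with bright muscle genes left out, the mean of probe sets, and the methods' t-test (unadjusted p under 0.05 and at least 1.2-fold).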

Additional observations from a re-analysis of the deposited data

How the results depend on the processing

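No member passed an adjusted p of 0.05 in any setting run. Probe sets past that threshold over the array numbered 1, but 2 after division by the array median, 0 without the trend, 4 with the replicate block, 3 without the arrays with bright muscle genes, 0 to 9 with each array left out (9 if wild type replicate 1 was omitted, 3 for wild type replicate 3, 0 for wild type replicate 2 or knockout replicate 2), and 0 by the methods' t-test after Benjamini-Hochberg. At its own threshold, an unadjusted p under 0.05 and at least 1.2-fold, that test gave 1136. The replicate block brought Acta2 (lower) and Col6a1 (higher) past the unadjusted threshold, 9 members in all, and changed no other member's call. Members past an unadjusted p of 0.05 numbered 7, but 11 after median division, 11 without the muscle arrays and 5 to 11 with each array left out. The shares of all genes higher and lower moved too. They were 4.94% and 3.25% in the main fit, 13.7% and 0.841% after median division, and 6.09% and 3.84% with the block. Without the muscle arrays they were 8.83% and 4.56%. With each array left out they ran from 1.94% to 7.58% higher and from 1.98% to 6.93% lower. Their median of 0.12 became 0.34 after median division and 0.27 without the muscle arrays, and ran from 0.055 to 0.24 with each array left out.

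Among single genes, 17 of 30 never changed sign. Median division gave 0.19 for Col6a3, 0.18 for Bgn, 0.20 for Igf2 and 0.18 for Rgs5. Quantile normalization gave -0.0044 for Col4a1, 0.043 for Col6a3 and -0.10 for Ptgds. The mean of probe sets gave -0.20 for Col4a1, -0.55 for Sparc, 0.35 for Bgn and -0.012 for Ptgds. Without the muscle arrays the values were 0.57 for Col6a3, -0.018 for Pcolce, -0.055 for Ogn, 0.16 for Bgn and 0.0036 for Rgs5. With each array left out, differences ran from -0.063 to 0.13 for Col4a1, -0.0022 to 0.18 for Col4a2, -0.32 to 0.47 for Col6a3, -0.14 to 0.20 for Fn1, -0.052 to 0.25 for Ogn, -0.19 to 0.13 for Bgn, -0.089 to 0.068 for Igf2, -0.29 to 0.33 for Slc6a13, -0.040 to 0.13 for Ptgds, -0.078 to 0.0026 for Rgs5 and -1.44 to 0.31 for Des. The cause was not tested. Myh11, Cnn1 and Slc22a6 were too dim for the filter in both genotypes and have no comparison.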
